A study of Cucumis sativus with 4 samples.

Results

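Cucumber (Cucumis sativus) roots fed little nitrate were compared with roots fed ample nitrate, gene by gene, through the Arabidopsis homologue that the authors gave each cucumber gene. The control root library came from plants on 5 mM nitrate and the low nitrogen root library from plants on 1 mM nitrate, both sampled 28 days after sowing from sand culture. The sources used here do not give the genotype of the plants or how many were pooled. Sulfate (0.25 mM in control and 1.45 mM in low nitrogen solution) and chloride (0.2 and 1.8 mM) differed with nitrate, so the effects of the 3 ions cannot be told apart; phosphate, potassium and calcium were supplied alike. Each group is 1 library, so differences have no replicate check and groups were not tested. Genes were compared where they averaged at least 5 RPKM over both root libraries, as 10331 of 18665 genes in the deposited table did. RPKM counts the reads on a gene per kilobase and per M reads, where M stands for mega. Of these, 9922 had a homologue ID, covering 8391 different Arabidopsis genes, and 409 had none.

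Roots take up nitrate through membrane transporters and reduce it to nitrite and then ammonium, which enters amino acids through glutamine and glutamate. Nitrite reduction in roots draws electrons from NADPH made by the oxidative pentose phosphate pathway, passed on by a root type of ferredoxin reductase and ferredoxin. In Arabidopsis, nitrate itself switches on the genes of this route, together with transcription factors that damp the response, while a shortage favours high-affinity uptake and the reuse of organic nitrogen. Roots short of oxygen show another well-known programme, in which group VII ethylene response factors turn on fermentation and a small set of partner genes.

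The 2 root libraries rested on 4.23 and 3.98 M reads as recovered from the steps between RPKM values, so a gene of 1 kilobase at 5 RPKM corresponds to 21.1 reads in control and 19.9 in low nitrogen root. Values above 0 were listed for 17054 and 17141 genes, and the 20 highest genes of each library took 14.5% and 14.6% of the RPKM sum. The labelled tissue matched its markers in part. Of 13 root marker genes in the table, 6 were compared, among them SHR (AT4G37650), a regulator of radial root patterning, at 11.6 and 12.5 RPKM (control first, low nitrogen second, here and in what follows). SCR (symbol SGR1, AT3G54220), which acts with SHR in the endodermis, stood under 1 RPKM in both of its copies. Photosynthesis markers stayed low: the light-harvesting gene LHCB1.3 (AT1G29930) was at 39.3 and 46.6 RPKM in root against 20926 in the control leaf library. All 14 leaf marker genes summed to 113 and 116 RPKM, and the leaf regulator YAB1 was at 0 in both.

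Ratios below are log2((low nitrogen + 1)/(control + 1)) of RPKM, and a gene is called higher or lower in low nitrogen root past a log2 ratio of 1 either way. Of the 10331 genes, 601 (5.82%) were higher, 411 (3.98%) lower and 9319 neither, with a median log2 ratio of 0.02. The middle 90% of genes lay between -0.91 and 1.06. Past a log2 ratio of 2 stood 91 higher and 65 lower genes, and past 3 stood 35 and 18. Read numbers, here and below the smallest whole numbers that fit the RPKM values, could be recovered for 514 higher and 335 lower genes. The 95% counting interval of 500 and 330 of these excluded equality. Because the genes were called on the same values, this is no separate support for the calls. In bulk tissue, fewer cells of a type and less RNA per cell cannot be told apart. At the limit of the comparison, PHIP1 (4.48 and 5.5 RPKM), AT3G21060 (4.56 and 5.42) and AT5G24620 (4.16 and 5.82) fell just below a mean of 5. GR1 (6.04 and 3.96), AT1G76600 (6.14 and 3.87) and SRO5 (3.2 and 6.81) fell just above it. Of the higher genes 161 were under 5 RPKM in control root, and of the lower genes 115 were under 5 RPKM in low nitrogen root, so these passed only through the library in which they were high. A copy of FHIT (AT5G58240) is an example, at 0 and 53.1 RPKM with a log2 ratio of 5.76. Its other copy was not called, at 44.2 and 43.2 RPKM.

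**Figure D1:**
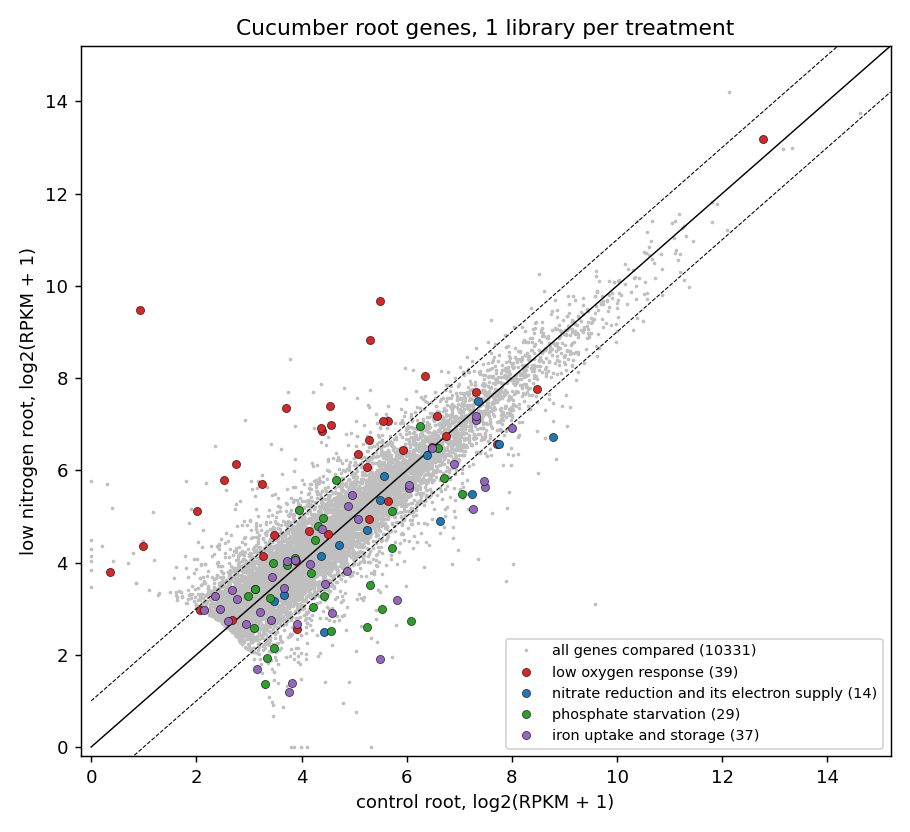
Each point is 1 of the 10331 root genes compared, placed by log2(RPKM + 1) in control root (x axis) and in low nitrogen root (y axis), 1 library each; the solid line marks equality and the dashed lines a log2 ratio of 1 either way. Low oxygen genes (39, red) reach far above the upper line, and genes of nitrate reduction (14, blue), phosphate starvation (29, green) and iron uptake (37, purple) reach below the lower one.

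Of the 27 lists of homologues, that of the low oxygen response had the highest median ratio. The lists were written with earlier results of these data known, so their order is a description and no test. Of 48 genes in the table with a homologue in this list, 39 were compared, and 20 were higher and 2 lower, against 5.82% higher and 3.98% lower among all genes. Their median log2 ratio was 1.11, against 0.02 over all genes compared, and 0.72 with no filter on low values. The supply of air to the sand was not described, and oxygen was not measured, in the sources used here.

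Fermentation genes were among the most different. Alcohol dehydrogenase (symbol ATADH1, AT1G77120), which makes ethanol, had 3 cucumber copies, at 44.3, 38.5 and 0.29 RPKM in control root and 813, 450 and 12.8 RPKM in low nitrogen root. All copies were higher, the third with as few as 1 control read. Pyruvate decarboxylase, the step before it, had PDC2 (AT5G54960) at 22.6 and 124.5 RPKM, higher by 5.52-fold (counting interval 4.74 to 6.44). PDC1 (AT4G33070) was at 45.9 and 133.2 RPKM. Lactate dehydrogenase LDH1 (AT4G17260), of the other fermentation branch, was at 21.6 and 23.7 RPKM and was not called. Sucrose synthase SUS4 (AT3G43190), which splits sucrose without spending ATP, went from 3.02 to 33.5 RPKM between the libraries, an 11.1-fold ratio (6.12 to 22.0).

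The genes that sense and carry the oxygen signal in Arabidopsis were also represented. Plant cysteine oxidases mark group VII factors for destruction while oxygen is present. PCO1 (AT5G15120) was at 5.74 and 69.0 RPKM, 12-fold higher (8.41 to 17.7), and PCO2 (AT5G39890) was at 19.9 and 114 RPKM, 5.75-fold higher (5.09 to 6.50). HRA1 (AT3G10040), a trihelix protein that restrains RAP2.12, was at 0.97 and 19.6 RPKM. The 3 genes thus lay on the same side. Group VII factors themselves were mixed. RAP2.3 (AT3G16770) was at 80.2 and 264 RPKM in one copy and 37.8 and 29.6 in another. RAP2.2 (AT3G14230) was called higher in one copy, at 10.2 and 23.2 RPKM, where the counting interval of its ratio ran from 0.875 to 6.61. Its other copy stood at 16.7 and 24.8 RPKM, and RAP2.12 (AT1G53910) stood at 94.7 and 144 RPKM with a log2 ratio of 0.60, both uncalled.

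Other genes of the list lacked a symbol in the table. AT3G29970, a B12D family protein in Arabidopsis, had the highest log2 ratio of all root genes, at 0.90 and 706 RPKM. Its ratio was 784 (141 to 31165), with as few as 1 read in control. AT4G10265, of the wound-responsive family, had 4 copies compared, of which 3 were higher: 22.3 against 167, 19.7 against 120 and 8.47 against 50.8 RPKM. SAD6 (AT1G43800), of the fatty acid desaturases, was at 4.78 and 54.3 RPKM. LBD41 (AT3G02550), a transcription factor, was at 38.0 and 99.8 RPKM. These were all higher in low nitrogen root, but the list did not move as one. CML38 (AT1G76650), a calmodulin-like protein, was lower in one copy (210 and 93.7 RPKM) and level in another (both 106 RPKM). AT3G23170 was lower, at 14.1 and 4.91 RPKM. The class 1 haemoglobin NSHB1 (AT2G16060), already among the 5 most abundant genes of control root, was at 7011 and 9361 RPKM, a log2 ratio of 0.42, and the oxidase RBOHD (AT5G47910) was at 87.9 and 90.4 RPKM.

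**Figure D2:**
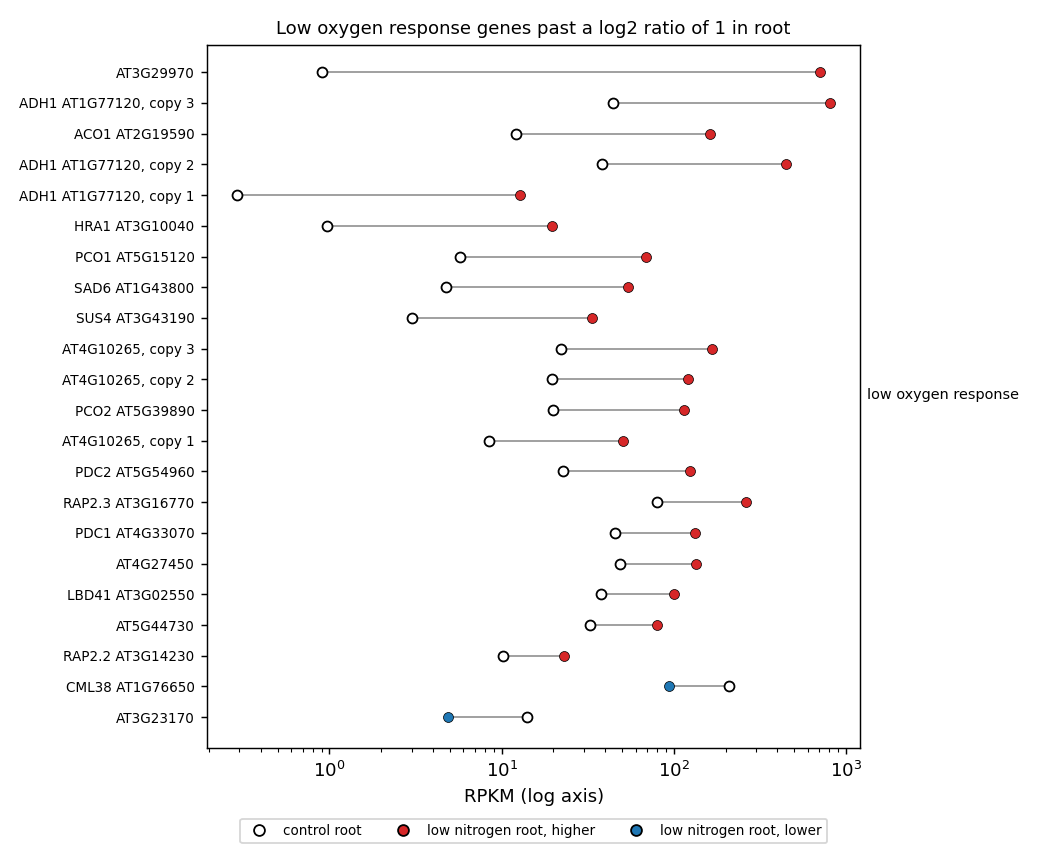
RPKM (log axis) of the 22 low oxygen genes past a log2 ratio of 1, control root as open circles and low nitrogen root as filled circles, 1 library each; copies of a homologue have a line each. In 20 of them the low nitrogen value is the higher one, and CML38 and AT3G23170 run the other way.

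Of 34 genes of glycolysis and sucrose cleavage compared, 4 were higher and 1 lower, beside 5.82% and 3.98% of all genes. Their median log2 ratio was 0.16. Besides SUS4, the higher ones were phosphofructokinase PFK2 (AT5G47810, 18.9 and 44.2 RPKM) and 1 copy each of pyruvate kinase (AT3G52990) and triose phosphate isomerase TPI (AT3G55440). The pyruvate kinase copy was at 7.82 and 34.8 RPKM beside 116 and 131 in its other copy, and TPI at 205 and 424 RPKM beside 125 and 139. The glyceraldehyde phosphate dehydrogenase GAPC2 (AT1G13440) was lower, at 596 and 249 RPKM. Of 24 ethylene genes 7 were higher, beside 5.82% of all genes, and 0 lower; 17 were not called, and the median log2 ratio was 0.15. The higher ones included ACC oxidases, which make ethylene: ATACO1 (AT2G19590, also in the low oxygen list) at 12.1 and 162 RPKM and EFE (ACO4, AT1G05010) in 2 of 3 copies, at 61.8 and 298 and at 12.8 and 32.5 RPKM. The third EFE copy was level, at 168 RPKM in both libraries. The factor ERF1 (AT3G23240), downstream of the ethylene signal, was higher in one copy (7.30 and 47.4 RPKM) and not called in the other (16.2 and 10.98). Among negative regulators, SIS1 (CTR1, AT5G03730) was higher in 1 of 2 copies, at 7.65 and 17.7 RPKM, and FBL6 (EBF1, AT2G25490) in 1 of 3, at 7.42 and 22.3.

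Nitrogen genes were called in both directions, and most were not called. In nitrate transport 2 of 11 genes were higher and 3 lower, beside 5.82% and 3.98% of all genes. The median log2 ratio was -0.22, and -0.10 with no filter on low values. The transporter and sensor NRT1.1 (AT1G12110) was 21.3-fold lower in its main copy, at 235 and 11.03 RPKM, while its second copy was at 31.5 and 29.1 RPKM. NRT1.5 (AT1G32450), which loads nitrate into the xylem in Arabidopsis, had 3 copies compared. One was lower (25.8 and 7.90 RPKM), one higher (47.9 and 148 RPKM) and one level (50.7 and 44.9 RPKM). High-affinity transporters also differed in direction: NRT2.4 (AT5G60770) was at 48.6 and 22.1 RPKM, and NRT2.5 (AT1G12940) at 0.15 and 19.6 RPKM with 1 control read. The others, NPF1.2, NPF3.1, NTL1 and NAXT1, lay within a log2 ratio of 0.62 either way.

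In nitrate reduction and its electron supply, 5 of 14 genes were lower and 0 higher, beside 3.98% and 5.82% of all genes. The median log2 ratio was -0.36, and 9 genes were not called. The lower ones included steps on the path from sugar phosphate to nitrite. The plastid pentose phosphate enzymes were G6PD1 (AT5G35790, 20.6 and 4.59 RPKM) and PGD3 (AT5G41670, 216 and 93.6 RPKM), the latter 2.31-fold lower (2.11 to 2.53). The root ferredoxin reductase RFNR1 (AT4G05390) was at 98.5 and 29.0 RPKM and the root ferredoxin FD3 (AT2G27510) at 439 and 105 RPKM, 4.18-fold lower (3.81 to 4.59). Nitrite reductase NIR1 (AT2G15620) was at 150 and 43.9 RPKM. Nitrate reductase itself did not follow them: NR2 (AT1G37130) was at 82.9 and 79.4 RPKM, with a ratio interval of 0.862 to 1.07. PGD2 (AT3G02360), a sister of PGD3, was at 163 and 181 RPKM. A second FD3 copy was at 44.1 and 39.9 RPKM. A copy of NR1 (AT1G77760), averaging under 5 RPKM and so not compared, was at 4.53 and 0.08 RPKM, the latter 1 read.

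Of 21 nitrate signalling genes compared, 5 were lower and 1 higher, beside 3.98% and 5.82% of all genes, and 15 were not called. Their median log2 ratio was -0.28, and -0.10 with copies summed. NIGT1.2 (AT1G68670) and NIGT1.1 (AT1G25550), GARP repressors that nitrate induces in Arabidopsis, had no symbol in the table. NIGT1.2 was at 164 and 15.8 RPKM, 10.4-fold lower (8.45 to 12.9). NIGT1.1 was at 197 and 32.6 RPKM, 6.04-fold lower (5.30 to 6.91). LBD37 (AT5G67420), another repressor of nitrate responses, was at 28.1 and 7.16 RPKM. The factor TGA1 (AT5G65210) was at 99.7 and 45.9 RPKM, and the BTB protein BT1 (AT5G63160) was at 44.8 and 21.2 in one copy and 12.1 and 8.44, not called, in the other. Other repressors of the list were not called, with log2 ratios of -0.33 in LBD38 (AT3G49940), -0.58 in HHO6 (AT1G49560) and -0.12 in HHO5 (AT4G37180). NLP8 (AT2G43500), of the nitrate-sensing NLP family, was the higher one, at 8.25 and 19.2 RPKM. None of 5 genes of the systemic nitrogen peptide and glutaredoxin list was called, with a median log2 ratio of 0.07, and the peptide receptor CEPR1 (AT5G49660) was at 13.5 and 9.64 RPKM in one copy and 11.7 and 12.3 in the other.

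Ammonium genes had 4 of 12 higher and 1 lower, beside 5.82% and 3.98% of all genes. Their median log2 ratio of 0.50 came to 0.27 with no filter on low values. The higher ones were the transporters ATAMT1;2 (AT1G64780, 11.1 and 33.7 RPKM) and ATAMT2 (AT2G38290, 16.6 and 44.7), the glutamate synthase GLUS (AT5G04140, 25.4 and 73.6) and the glutamate dehydrogenase GDH1 (AT5G18170, 38.2 and 90.0). Cytosolic glutamine synthetase GSR 1 (AT5G37600) was lower in a minor copy, at 18.6 and 4.35 RPKM, while its main copy stood at 502 and 613 RPKM.

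In amino acid transport and nitrogen salvage, 7 of 27 genes were higher and 1 lower, beside 5.82% and 3.98% of all genes. The median log2 ratio was 0.47. The uricase homologue AT2G26230, which opens the breakdown of purine rings to ureides, was at 38.3 and 212 RPKM, 5.54-fold higher (4.97 to 6.18). Next in that pathway, allantoinase ALN (AT4G04955) was at 10.6 and 16.1 RPKM and was not called. The ureide permease UPS1 (AT2G03590) was at 5.93 and 16.8 RPKM and the urea transporter DUR3 (AT5G45380) at 15.5 and 36.1. UMAMIT14 (AT2G39510), an amino acid exporter in Arabidopsis roots, had 6 copies compared, of which 3 were higher. The largest of these was at 99.9 and 285 RPKM, the next at 29.8 and 111, and the smallest at 0.99 and 21.2 RPKM, 21.4-fold higher (8.91 to 67.6). The remaining copies stood at 17.8 against 31.3, 9.85 against 18.7 and 70.1 against 66.8 RPKM. The autophagy gene ATG8I (AT3G15580) was at 133 and 279 RPKM. CAT6 (AT5G04770), a cationic amino acid transporter, was the lower one, at 14.3 and 2.58 RPKM.

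**Figure D3:**
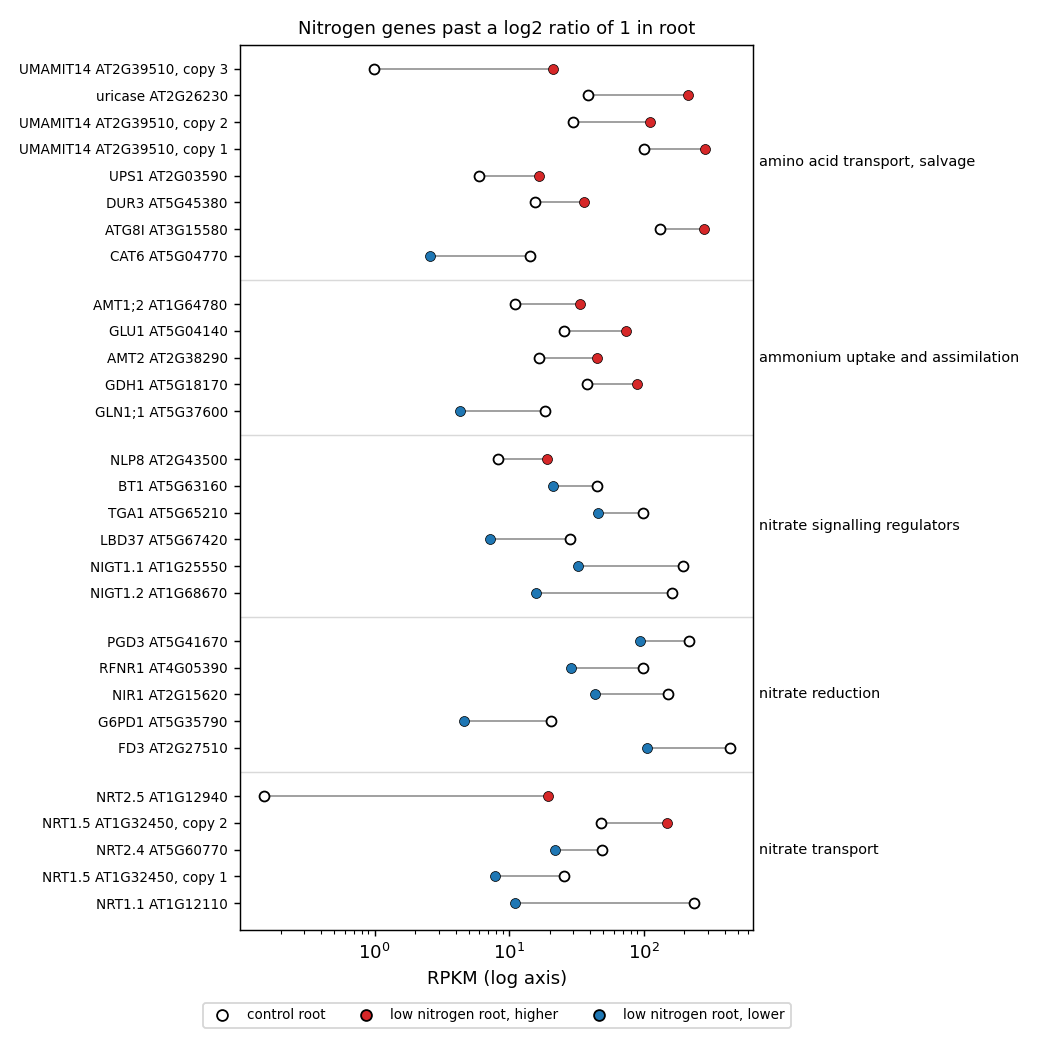
RPKM (log axis) of the nitrogen genes past a log2 ratio of 1, control root open and low nitrogen root filled, grouped by list, 1 library each. All 5 nitrate reduction genes have the lower value in low nitrogen root, and 7 of 8 genes of amino acid transport and salvage the higher one.

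Genes of other nutrients were mostly lower where they were called. For phosphate starvation, 12 of 29 genes were lower and 2 higher, beside 3.98% and 5.82% of all genes. The median log2 ratio of -0.52 came to -0.15 with no filter on low values. Lower members covered signalling, with SPX3 (AT2G45130) at 66.7 and 5.66 RPKM (11.8-fold lower, 7.19 to 20.6), uptake, with PHT3 (PHT1;3, AT5G43360) at 22.6 and 4.68, and lipid turnover, with MGD2 (AT5G20410) at 8.91 and 1.56. Purple acid phosphatases, which free phosphate from organic compounds, had PAP12 (AT2G27190) at 37.2 and 5.11 RPKM and both PAP10 copies lower. The higher ones were SPX4 (AT5G15330, 24.3 and 53.9 RPKM), an inhibitor of the phosphate response, and WRKY75 (AT5G13080, 14.5 and 34.1). NIGT1 repressors, lower above, act on phosphate genes as well in Arabidopsis, but a link between them was not tested here.

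Iron genes had 12 of 37 lower and 0 higher, beside 3.98% and 5.82% of all genes. Their median log2 ratio was -0.27, and -0.58 with copies summed. Iron supply was given as the same in both solutions. The acquisition chain of Arabidopsis roots was represented at each step. Its regulators FRU (FIT, AT2G28160) and ORG3 (BHLH39, AT3G56980) were at 14.1 and 5.36 RPKM and at 13.1 and 1.61, the latter with 3 reads in low nitrogen root. The ferric reductases were FRO2 (AT1G01580, 22.8 and 6.51 RPKM) and FRO4 (AT5G23980, 12.6 and 1.3), and the iron transporter IRT1 (AT4G19690) was at 175 and 53.4 RPKM. Proton release, which dissolves iron, was represented by PMA2 (AHA2, AT4G30190), lower in one copy (255 and 120 RPKM) and not called in the other (158 and 135). Nicotianamine synthases, which make a metal carrier, were lower in NAS1 (AT5G04950, 43.9 and 2.75 RPKM, 15.97-fold with 7.52 to 40.6) and in both NAS4 copies (AT1G56430, 55.5 and 8.13, and 7.95 and 2.21). The copper transporter COPT2 (AT3G46900) was lower in one copy, at 178 and 48.8 RPKM, and not called in the other, at 13.6 and 15.6. VTL5 (AT3G25190), a vacuolar iron transporter-like protein without a symbol in the table, was at 151 and 34.9 RPKM.

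Sulfur genes had 1 of 18 higher and 3 lower, beside 5.82% and 3.98% of all genes, with a median log2 ratio of -0.04. SULTR3;5 (AT5G19600), a partner of root sulfate transport, was at 51.4 and 2.84 RPKM, and LSU2 (AT5G24660), which responds to sulfur shortage in Arabidopsis, was at 20.9 and 1.64 RPKM with 2 reads in low nitrogen root. OASB (AT2G43750), a cysteine synthase, was at 57.1 and 17.7 RPKM, whereas the mitochondrial cyanoalanine synthase CYSC1 (AT3G61440), which detoxifies the cyanide released in ethylene synthesis, was at 41.5 and 147 RPKM. Low nitrogen solution held more sulfate, and its part in these values was not tested. Among aquaporins, 6 of 17 were lower and 0 higher, beside 3.98% and 5.82% of all genes. Their median log2 ratio was -0.64, the lowest of the lists written from Arabidopsis pathways. TIP2;2 (AT4G17340), a tonoplast channel, was at 1266 and 529 RPKM, and the plasma membrane channel TMP-B (PIP1;3, AT1G01620) at 119 and 40.0 in one copy and 229 and 146, not called, in the other.

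**Figure D4:**
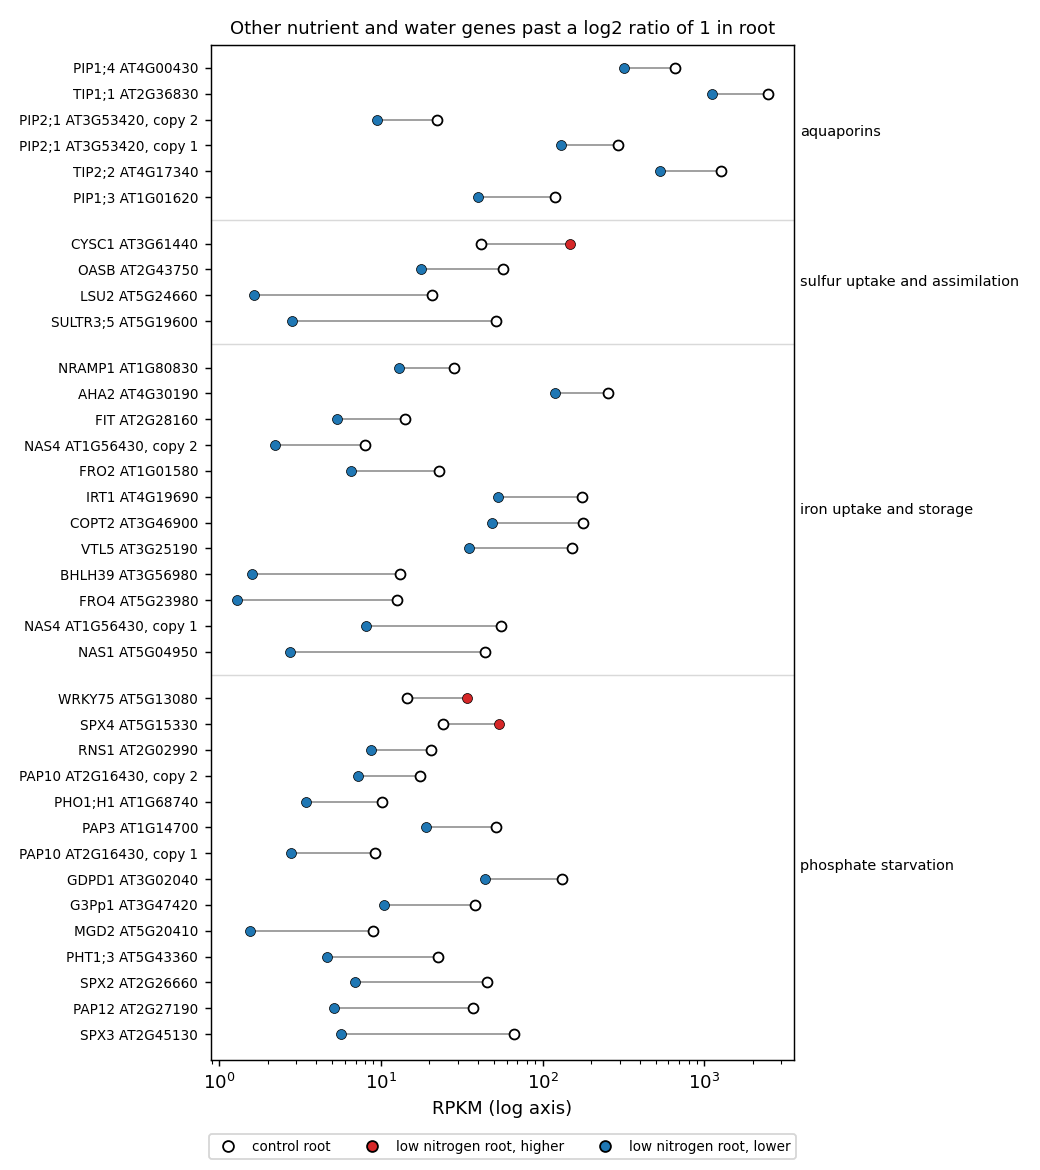
RPKM (log axis) of phosphate, iron, sulfur and aquaporin genes past a log2 ratio of 1, control root open and low nitrogen root filled, 1 library each. All 12 iron genes and all 6 aquaporins shown have the lower value in low nitrogen root, and SPX4, WRKY75 and CYSC1 the higher one.

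In the lists of organic acids and of salts single genes were called, near the shares of all genes (5.82% higher and 3.98% lower). TDT (AT5G47560), a vacuolar malate carrier, was the 1 gene of 17 called in the malate list, at 115 and 14.6 RPKM, 7.85-fold lower (6.90 to 8.96), and the list's median log2 ratio was -0.19. In the potassium, sodium and chloride list, HKT1 (AT4G10310), which retrieves sodium from the xylem, was the 1 gene of 17 called, at 58.5 and 28.3 RPKM, with a list median of -0.07.

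Cell wall genes split, and the shares of all genes beside the counts that follow were 5.82% higher and 3.98% lower. Class III peroxidases, which cross-link or loosen walls, had 6 of 33 higher and 5 lower, with a median log2 ratio of -0.21 that came to 0.38 with copies summed. PA2 (AT5G06720) was lower in 1 of 3 copies, at 458 and 74.95 RPKM, 6.12-fold lower (5.48 to 6.84), and AT5G05340 in 2 of 3 copies, the larger at 549 and 164 RPKM, while its most abundant copy stood at 754 and 619. AT5G06730, on the same scaffold as PA2 and a close relative in Arabidopsis, was higher in 1 of 3 copies, at 38.2 and 164 RPKM, and not called in the others, at 299 and 454 and at 298 and 258. AT5G15180 was at 142 and 352 RPKM, and RCI3A (AT1G05260) at 0.23 and 50.7 with 1 control read. Expansins and xyloglucan enzymes had 7 of 36 higher and 7 lower, with a median log2 ratio of 0.10. Of the 7 higher ones, 6 were expansin-like EXPL and EXPR genes, of which 4 were at 0 in control root and so were compared only through the library in which they were high. The most abundant EXPL2 copy was not called, at 271 and 167 RPKM. The 7 lower ones were α-expansins and xyloglucan enzymes, such as EXPA8 (AT2G40610, 40.4 and 12.4 RPKM) and one copy of XTR8 (XTH31, AT3G44990, 13.8 and 3.41 RPKM), whose larger copy was not called (564 and 307). The α-expansin EXPA4 (AT2G39700) was higher in 1 of 3 copies, at 9.30 and 20.2 RPKM. Phenylpropanoid genes had 3 of 27 higher and 1 lower with a median of 0.14: PAL1 (AT2G37040), of the entry step, was higher in 2 of 6 copies, at 17.1 and 41.5 and at 8.99 and 19.5 RPKM, and HCT (AT5G48930) lower at 95 and 43.1.

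The lists of root structure that follow held 0 or 1 called gene each, beside 5.82% higher and 3.98% lower among all genes. Counts this small cannot show whether fewer or more of their genes were called than among all genes. The lists are short, and their shares were not tested against the other genes. None of 15 Casparian strip and suberin genes was called, with a median log2 ratio of -0.07. Of 11 root hair genes, 1 was lower, EXPA7 (AT1G12560), a root hair expansin, at 25.1 and 5.78 RPKM, with a list median of -0.09. Root cap regulator SMB (AT1G79580) was at 35.1 and 17.2 RPKM, just short of the threshold with a log2 ratio of -0.99, and PHO1 (AT3G23430), of xylem phosphate loading, was at 104 and 56.0 RPKM. The 6 root markers had 1 lower gene, EXPA7, and a median of -0.39, which came to 0.10 with genes down to a mean of 1 RPKM. In the meristem and auxin transport list 1 of 10 was higher, 1 of 3 copies of WAV5 (AUX1, AT2G38120) at 4.35 and 14.3 RPKM, with a median of 0.09. Of 32 cell cycle and histone genes, 1 was higher, the replication factor MCM4 (AT2G16440, 3.85 and 9.39 RPKM), with a median of -0.01. The 5 leaf markers held no called gene, with a median of 0.14.

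Of 22 cytokinin genes 4 were lower, beside 3.98% of all genes, and 0 higher, with a median log2 ratio of -0.12. The response regulator MEE7 (ARR4, AT1G10470), which cytokinin induces in Arabidopsis, was at 27.7 and 4.79 RPKM. IPT5 (AT5G19040), of cytokinin synthesis, was lower in 1 of 2 copies, at 17.7 and 7.27 RPKM. CKX7 (AT5G21482) and CKX4 (AT4G29740), of its breakdown, were at 43.9 and 9.22 RPKM and at 10.1 and 1.74. The called genes thus came from synthesis, breakdown and response. Of 21 abscisic acid genes 5 were higher and 2 lower, beside 5.82% and 3.98% of all genes, with a median of 0.01. The receptor RCAR10 (PYL4, AT2G38310) was higher in 3 of 4 copies, at 4.92 and 46.3, 12.3 and 47.4, and 13.7 and 49.1 RPKM, while its most abundant copy was not called, at 183 and 289. The receptor RCAR3 (PYL8, AT5G53160) was lower in 1 of 3 copies, at 152 and 69.2 RPKM, and not called in the others, at 11.3 and 18.4 and at 13.8 and 14.7. CYP707A1 (AT4G19230), which breaks the hormone down, was at 57.3 and 130 RPKM. Stress and elicitor regulators had 3 of 34 higher and 3 lower with a median of -0.09, WRKY33 (AT2G38470) being higher in 1 of 3 copies (25.4 and 52.6 RPKM), WRKY40 (AT1G80840) in 1 of 2 (13.9 and 34.6), and both compared copies of the jasmonate repressor TIFY9 (JAZ10, AT5G13220) lower.

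**Figure D5:**
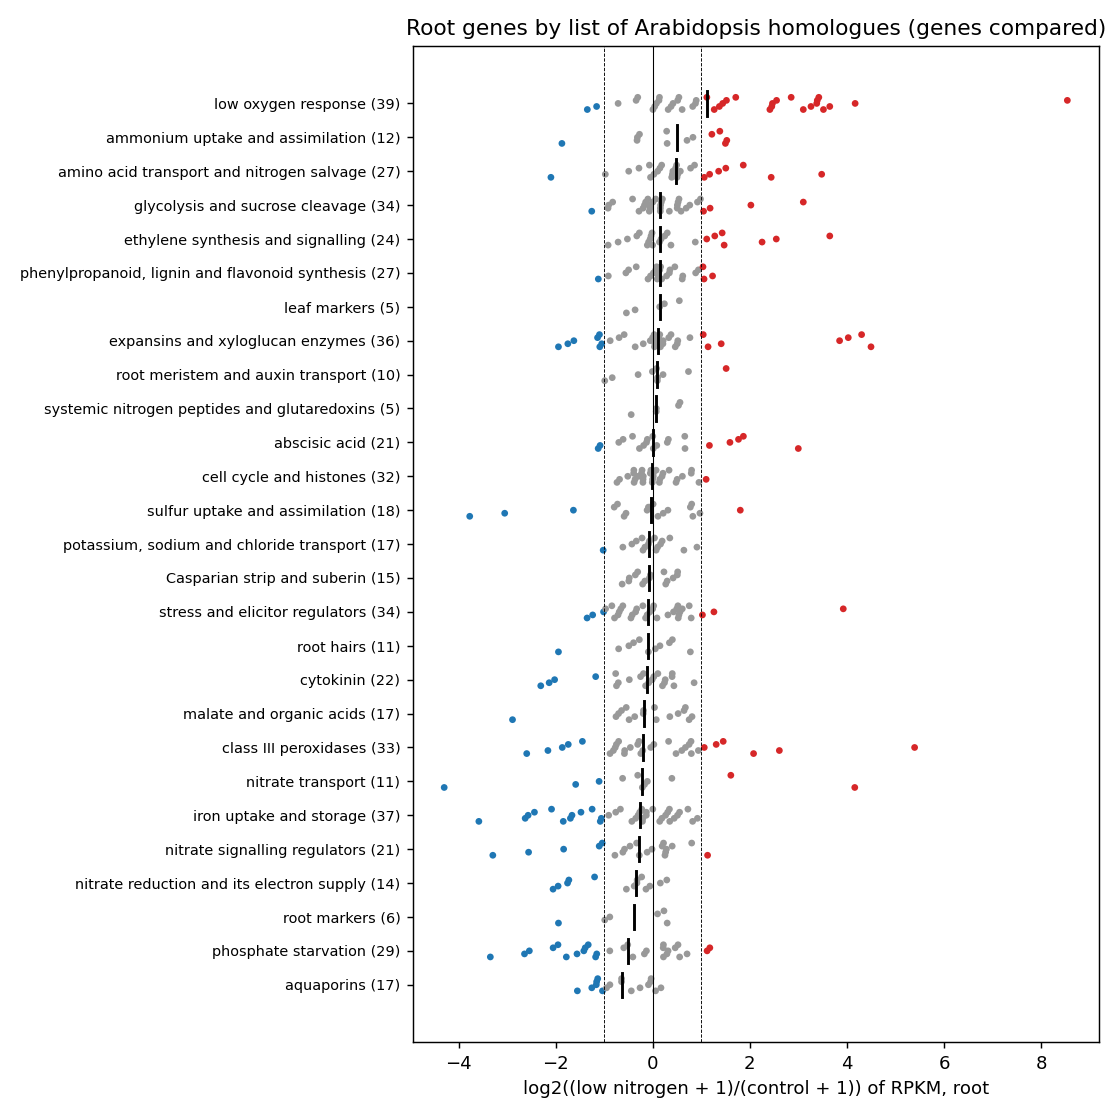
Log2 ratio of low nitrogen over control root (x axis, pseudocount 1 RPKM) for each gene of the 27 lists of Arabidopsis homologues, ordered by median (black bars), with the number of genes compared in brackets; red and blue points are past the dashed thresholds, grey ones are not. The low oxygen list has the highest median, 1.11, and aquaporins the lowest, -0.64. The lists were written with earlier results of these data known.

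Of 5586 genes with a homologue but no symbol, 5.53% were higher and 3.19% lower, beside 5.79% and 4.59% of the 4336 genes with a symbol. Beside the low oxygen genes, several of the largest ratios fell among them. AT3G05550, whose Arabidopsis protein belongs to the hypoxia-induced HIG1 family, was outside the low oxygen list. It was higher in both copies, at 12.7 and 337 RPKM (26.6-fold, 15.6 to 49.1) and at 262 and 547 RPKM. AT3G62550, of the universal stress proteins, was at 12.4 and 205 RPKM, 16.6-fold higher (12.8 to 21.9), and at 17.2 and 51.3 RPKM in its second copy. AT5G25940, an early nodulin-related gene, was at 19.6 and 233 RPKM in one copy and 332 and 311, not called, in the other. AT5G14650, of the pectin lyase-like family, was at 4.14 and 91.3 RPKM, 22.1-fold higher (15.3 to 33.0). AT5G08350, with a GRAM domain, was at 3.54 and 51.7 RPKM in one of 3 copies and at 105 and 47.5 in another, so that copies parted. AT2G22070, a pentatricopeptide repeat gene, was at 0.32 and 35.2 RPKM with 1 control read. AT5G42610 was at 0.33 and 15.3 RPKM, and AT1G65560, a zinc-binding dehydrogenase, was at 0.63 and 14.8 in 1 of 2 copies; no read numbers were recovered for either gene.

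Lower genes without a symbol held several regulators. AT5G06800, of the MYB-like family, was lower in both copies, at 31.8 and 0.68 RPKM and at 76.5 and 23.9. AT5G62040, the homologue of BROTHER OF FT AND TFL1, was at 14.9 and 0 RPKM. With 3 reads set in place of 0 it was 11-fold lower. The counting interval, which keeps the 0 here and below, ran from 8.46. AT1G33480, a RING finger gene, was at 125 and 18.3 RPKM. None of these was in a list. AT5G06420, a zinc finger gene, was at 16.2 and 0 RPKM, 2.19-fold lower with 3 reads in place of 0 (counting interval from 1.36). AT3G07350 was at 12.9 RPKM and listed at 0. The mannanase homologue AT5G66460 was at 9.90 and 0.98 RPKM, 10.1-fold lower (4.66 to 25.9), and AT3G19430, in 1 of 3 copies, at 11.5 and 0.83 with 3 reads in low nitrogen root. Where read numbers were recovered, these low values rest on 0 to 7 reads. The kelch repeat gene AT3G07720 was at 79.4 and 14.0 RPKM (5.65-fold lower, 4.85 to 6.62), AT3G47980 at 116 and 22.1 and AT1G17830 at 41.9 and 6.83. The MATE transporter homologue AT4G29140 was at 18.9 and 2.94 RPKM, and AT5G43150, in 1 of 3 copies, at 26.7 and 0.94, with no read numbers recovered for either gene.

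Of the 409 genes with no homologue, 10.0% (41 genes) were higher and 8.31% (34 genes) lower, shares that were not tested against the other genes. They were shorter, with a median deposited length of 804 bases against 3686 for genes with a symbol, so fewer reads stood behind a given RPKM; the part of length was not tested. The highest ones were on scaffold00927 (6.62 and 134 RPKM, 20.3-fold, 13.5 to 32.0), scaffold03356 (17.6 and 208 RPKM) and scaffold02385 (27.0 and 218 RPKM). The scaffold01017 gene was at 0 and 16.8 RPKM, 2.48-fold higher with 3 reads in place of 0 (counting interval from 1.53). That on scaffold00464 was at 2.72 and 34.7 RPKM with 2 control reads. Among the lower ones, a gene on scaffold02653 was at 241 and 35.2 RPKM (6.84-fold, 5.28 to 8.99). One on scaffold03904 was at 39.1 and 0 RPKM, 5.96-fold lower with 3 reads in place of 0 (counting interval from 4.39). A gene on scaffold01071 was at 13.4 and 0 RPKM, 2.51-fold lower with 3 reads in place of 0 (counting interval from 1.61). The others were on scaffold01001 (34.2 and 5.16 RPKM) and scaffold00542 (14.9 and 1.76 RPKM, 1 read in low nitrogen root).

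The order of the most abundant RNAs differed between the libraries. Of 170 genes averaging at least 500 RPKM, 5 were higher and 9 lower, beside 5.82% and 3.98% of all genes. Their median log2 ratio was -0.11. The ubiquitin homologue UBQ9 (AT5G37640), at only 7.41 and 13.2 RPKM in leaf, led control root at 25232 RPKM. It stood at 13711 in low nitrogen root, a log2 ratio of -0.88 that is short of the threshold. The metallothionein MT1C (AT1G07610), a small metal-binding protein, was at 4497 RPKM in control root and led the other library at 18724 RPKM, 4.16-fold higher (3.99 to 4.35). MT2A (AT3G09390) was at 1512 and 2306 RPKM, whereas MT3 (AT3G15353) was 9.87-fold lower, at 31.8 and 3.22 RPKM. Metallothioneins thus had 1 gene higher, 1 lower and 1 uncalled among 3, with a median of 0.61. Major latex proteins, which bind hydrophobic compounds, had 1 of 16 higher and 1 lower, with a median of 0.11: MLP34 (AT1G70850) was at 10283 and 8111 RPKM in the largest of 6 copies, AT4G14060 at 1335 and 2698 in the 1 of 3 copies that was higher, and AT1G30990 at 2341 and 1259. AT5G28010 of the same family held the lower gene, at 103 and 26.5 RPKM, beside a copy at 2113 and 2637. Lipid transfer proteins had 4 of 18 higher and 0 lower, with a median of 0.53, led in level by AT2G45180 (366 and 1216 RPKM) and AT5G55450 (391 and 949) and in ratio by AT1G62510 (2.49 and 53.4 RPKM). Universal stress proteins had 3 of 11 higher and 1 lower, with a median of 0.27 that came to 0.09 with copies summed; the other higher gene besides both AT3G62550 copies was AT2G47710 (48.9 and 168 RPKM), and the lower was AT1G68300 (27.2 and 9.05). These 4 families were picked after their values were seen and are given as a description.

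Other abundant genes differed by many RPKM at modest ratios. Aquaporin PIP2F (AT5G60660) was at 4354 and 2360 RPKM and TIP1;1 (AT2G36830) at 2466 and 1123. AGO3 (AT1G31290), an Argonaute homologue, was at 1854 and 891 RPKM, and the peroxiredoxin TPX1 (AT1G65980) at 1437 and 598. A gene with no homologue on scaffold02018 was at 2657 and 1004 RPKM. Of ribosomal protein homologues, AT2G32060 was at 9077 and 7999 RPKM in its largest copy, 487 and 275 in the next and both 116 in the smallest. AT3G44590 was at 3591 and 2681 RPKM, and the defensin PDF2.2 (AT2G02100) was at 2796 and 2021. The cyclophilin ROC3 (AT2G16600) was at 1626 and 2703 RPKM, and AT1G15270 differed least, at 3584 and 3630. AT1G24620, an EF-hand protein, was at 2209 and 2720 RPKM in the largest of 4 copies. Genes with no homologue on scaffold01658 (3844 and 3473 RPKM) and scaffold03611 (2320 and 3012 RPKM) completed the 10 highest of either library.

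Many Arabidopsis genes had several cucumber copies. Of 1234 homologues with at least 2 cucumber genes compared, 283 had at least 1 called gene. In 249 of these some copies were called and others not, and in 23 all copies were called in 1 direction, 13 higher and 10 lower. Among all genes 5.82% were higher and 3.98% lower, so most copies of any homologue would be uncalled. Whether copies were called together more or less often than these shares imply was not tested. The ADH1 copies are an example among the higher ones. Among the lower ones, the PDF1.4 (AT1G19610) copies were at 261 and 14.6 and at 28.8 and 1.64 RPKM. Copies may share reads, since the sources used here do not say how reads that match several genes were assigned. In 11 homologues copies were called in opposite directions, among them NRT1.5 and the stress ligase TL2 (AT3G16720, 16.6 and 5.90 against 1.26 and 33.3 RPKM, with 2 more copies not called). The largest split was MEE66 (AT2G02240), a phloem lectin-type F-box gene, at 765 and 7.55 RPKM in one copy (101-fold lower, 63.0 to 174) and 31.5 and 71.4 RPKM in another, while the remaining copy, at 12.4 and 10.5, was not called. RAP2.11 (AT5G19790), an ethylene response factor linked to potassium shortage in Arabidopsis, was at 17.5 and 6.30 RPKM in one copy and at 4.95 and 24.0 in the other. NAC100 (AT5G61430) was at 67.4 and 29.5 RPKM, at 4.08 and 11.4, and, not called, at 12.4 and 6.27. The blue copper protein SAG14 (AT5G20230) was lower in 3 copies, higher in 1 and not called in 3, and the chitinase CHIA (AT5G24090), the flowering gene homologue ATC (AT2G27550), AT2G17080, AT5G02230 and AT5G08350 parted likewise.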

How the data were processed

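RNA of 2 root and 2 leaf libraries, 1 per group, was sequenced; the labels' protocols state 0.1 g of tissue and 6 µg of total RNA. The authors deposited RPKM values per gene, with symbol, homologue and length; the submitters' processing notes name Bowtie 0.12.9. The build, the counting and the treatment of reads matching several genes are not stated in these sources. Deposited gene lengths exceed those behind the scaling: the sum of RPKM times length came to 2.00 and 1.99 times the reads.

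From these values were computed log2 ratios with a pseudocount of 1 RPKM for genes with a mean of at least 5, called past 1 (Python 3.11.15, pandas 2.3.3). Depth came from RPKM steps, with a tolerance of 0.00501 RPKM, and reads are the smallest whole numbers allowed by any length from 100 bases to the deposited one. They existed for 86.4% of compared genes, against 47.0% with shuffled values, so a single gene's reads are uncertain. Exact conditional (Clopper-Pearson) 95% intervals (SciPy 1.17.1) cover counting error only. Folds of genes at 0 in a library set 3 reads in its place and are no lower bound. The counting intervals of these genes keep the 0. Both rest on the smallest read numbers allowed, so a longer gene length would give other values. The computation was tested on simulated data.

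Named genes were drawn from the ends of the ratios (10 each way over all genes, 15 without symbol, 5 without homologue). The 10 most abundant genes, the 10 largest differences, parted copies and genes at the limit were also drawn on. So were up to 6 called members per list and whole lists of up to 12 genes. Others were chosen after their values were seen. Members, 27 lists of homologues and 5 families added later were chosen with earlier results of these data known, and 1 list entry was corrected after its value was seen. Alternatives were other pseudocounts, filters, thresholds and scalings and summed copies. No gene ID matched the RefSeq gene table (0 of 23999), so homologues are the authors' and no sequence is printed.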

Additional observations from a re-analysis of the deposited data

Results flagged for a closer look

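In 4 of the genes named by rule, the root and leaf ratios pointed in opposite directions, each past a log2 ratio of 1; with 1 library per group the difference was not tested. A copy of the peroxidase homologue AT2G41480 went from 7.96 to 53.6 RPKM in root (control, then low nitrogen) but stood at 10.6 and 1.26 in leaf, a root minus leaf difference of 4.97 on the log2 scale. A copy of another peroxidase, AT5G06730, was at 38.2 and 164 RPKM in root and 33.9 and 15.4 in leaf, a difference of 3.16. In the other direction, the jasmonate repressor homologue TIFY9 (AT5G13220, scaffold00919) was at 10.0 and 3.68 RPKM in root and 7.99 and 24.1 in leaf, a difference of -2.72. The AT5G02230 copy on scaffold00696, a hydrolase family gene, was at 355 and 114 RPKM in root and 12 and 27.5 in leaf, a difference of -2.77.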

How the results depend on the processing

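The counts of called root genes, 601 higher and 411 lower, moved by over 1.5 times with the definition rather than the scaling. They became 356 and 254 with a pseudocount of 5, 91 and 65 at a log2 ratio of at least 2, and 1688 and 1269 at 0.58. Other settings also changed how many genes were compared, 10331 in the main setting. With no filter on low values 1000 and 723 of 18665 genes were called, and at a mean of at least 1 RPKM 897 and 631 of 14532. With the RPKM of genes of 1 homologue summed, 387 and 266 of 8517 were called. Scaling moved the balance of the calls. Of called genes 59.4% were higher in the main setting, 53.9% with upper quartile scaling and 63.3% without the 20 highest genes. With 5 other settings (a pseudocount of 0.1, 3 scalings, and at least 5 RPKM in both root libraries, the last chosen after seeing the data) both counts stayed within 1.5 times; with the last, 440 were higher and 296 lower. Of 172 named genes past the threshold, 0 changed sign, 8 dropped under it with a scaling and 24 with a pseudocount of 5. Of 32 list medians, 8 changed sign under some setting, and 1 of these had been at least 0.25 from 0: the root markers, -0.39, came to 0.10 with genes down to a mean of 1 RPKM. The low oxygen median of 1.11 came to 0.72 and the phosphate median of -0.52 to -0.15 with no filter, and the peroxidase median of -0.21 to 0.38 with copies summed. No paired analysis was possible because each group has 1 library. Depth limits low genes, and ratios on 1 to 3 reads have wide intervals.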

Other observations

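A family of unknown function stood low in low nitrogen root, noticed after its values were seen. DUF506 proteins had 8 genes compared, of which 4 were lower and 0 higher, beside 3.98% and 5.82% of all genes. Their median log2 ratio was -1.08, against 0.02 over all genes compared. AT3G07350 was at 12.9 RPKM in control root and listed at 0 in low nitrogen root. AT1G12030 was at 9.92 and 0.88 RPKM with 3 reads in low nitrogen root. The copies of AT4G32480 were at 14.2 and 2.95 RPKM (4.82-fold lower, 2.75 to 9.04) and at 23.0 and 7.03 (3.27-fold, 2.26 to 4.82). The most abundant member, AT1G77145, was at 164 and 109 RPKM and was not called.

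In leaf, the same treatment gave a median log2 ratio of 0.34 over the 7525 genes averaging at least 5 RPKM in each tissue, with 902 higher and 168 lower. Of 601 genes higher in root, 353 reached that mean in leaf, and 61 were higher and 10 lower there. Of 411 genes lower in root, 234 reached it, and 9 were higher and 44 lower. Root and leaf have separate control libraries. The 20 highest genes of each leaf library took 32.9% of the RPKM sum in control and 25.0% in low nitrogen. Their part in the leaf ratios, here and among the flagged genes, was not tested.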
